A study of Mus musculus with 15 samples.

Results

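The collagen genes of the mouse were followed in the liver and the lung of mice fed a diet with or without added phytosterols. They were taken as every protein-coding gene whose symbol is Col, a number, the letter a and a number, which gave 44 of the 54532 genes in the count tables. The libraries were bulk RNA-seq of tissue pieces from male wild-type C57BL/6J mice that the labels give as 28 weeks old, although the feeding times stated in the methods add up to a greater age. The control group (CS) had the control diet and the phytosterol group (PS) had a diet with 2% phytosterols, the plant counterparts of cholesterol. There were 4 CS and 5 PS livers and 3 CS and 3 PS lungs. These came from 9 mice, of which 6 gave both tissues. The question was whether the diet altered expression in each tissue, and for the collagen genes also how the tissues differed.

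Collagens are the main structural proteins of the extracellular matrix. Their chains wind around each other into rod-like helices, either as copies of a single chain or as mixtures of chains from several genes. The classes differ in how those rods assemble. Fibrillar collagens such as types I, III and V form the banded fibrils that give tissue its strength, and types I and III are the usual collagens of scar. Type IV collagen forms the sheet-like network of basement membranes, where Col4a1 and Col4a2 encode the common chains and Col4a3, Col4a4 and Col4a5 the chains of the alveolar and glomerular membranes. Type VI collagen forms beaded filaments, type VIII a short-chain network of vessel walls, and type VII the anchoring fibrils of epithelia. The FACIT collagens, such as types XII and XIV, bind to the surface of fibrils. Transmembrane collagens such as type XIII span the cell surface, and the multiplexins, types XV and XVIII, sit at basement membranes. In the liver, hepatic stellate cells are the best-known source of fibrillar collagen, while hepatocytes are known to make type XVIII collagen, the precursor of endostatin.

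Total counts per library ran from 14410117 to 17625179 in the liver and from 17934930 to 19396057 in the lung, so that collagen genes of low level rested on few reads. The labelled tissues matched their markers. The summed level of 5 hepatocyte markers was 36425 to 60210 FPKM (fragments per kilobase of gene, scaled for sequencing depth, the deposited per-length unit) in the livers and at most 48.4 in the lungs. That of 6 alveolar epithelial markers was 15479 to 29520 in the lungs and at most 34.9 in the livers. Other tissue varied between lungs. Summed skeletal muscle markers stood at 272 in CS lung replicate 3 and at 2.41 to 6.13 in the other lungs, heart muscle markers at 245 in PS lung replicate 1 and at 11.4 to 89.3 elsewhere, and fat cell markers between 84.1 and 102 in CS replicates 1 and 2 and PS replicate 1, at 10.9 in CS replicate 3 and near 0 in PS replicates 2 and 3. In bulk tissue, fewer cells of a type and less RNA per cell cannot be told apart.

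Several collagen genes lie beside each other, and the start regions shown here are those of genes on which the results turn. Col4a1 (chr8:11198423-11312826, minus strand) and Col4a2 (chr8:11312805-11449287, plus strand) face away from each other, and their annotated ends overlap by 22 bases on GRCm38, the build of the deposited mm10 coordinates. Col4a4 and Col4a3 on chromosome 1 are also head to head, with 71 bases between them, and so are Col4a6 and Col4a5 on chromosome X, with 1308 bases between them. Start regions came from RefSeq (GRCm38.p6), each of 250 bases before to 50 bases after a start site, and 35 of the 44 genes had an entry, with 38 windows. The 2 windows of the Col4a1 and Col4a2 pair share 78 bases, read on opposite strands. Capitals mark matches on either strand to the TATA box string TATAAA, the CAAT box string CCAAT and the GC box string GGGCGG, searched as those exact letters.
Col4a1, chr8:11312777-11313076, minus strand: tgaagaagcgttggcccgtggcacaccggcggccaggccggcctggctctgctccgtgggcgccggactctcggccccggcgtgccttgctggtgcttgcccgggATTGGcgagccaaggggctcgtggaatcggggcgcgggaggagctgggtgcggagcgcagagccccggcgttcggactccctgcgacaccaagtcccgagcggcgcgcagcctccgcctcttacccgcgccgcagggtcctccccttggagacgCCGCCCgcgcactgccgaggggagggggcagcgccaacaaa
Col4a2, chr8:11312555-11312854, plus strand: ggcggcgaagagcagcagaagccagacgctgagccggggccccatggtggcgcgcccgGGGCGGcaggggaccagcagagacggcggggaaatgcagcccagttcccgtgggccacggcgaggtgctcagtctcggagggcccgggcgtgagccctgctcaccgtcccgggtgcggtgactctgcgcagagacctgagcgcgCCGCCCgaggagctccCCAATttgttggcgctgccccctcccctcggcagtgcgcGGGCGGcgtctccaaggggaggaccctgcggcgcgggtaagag

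Col18a1, the collagen gene of highest level in the liver, had windows at 2 starts. They are shown because they differ, with 3 matches to GGGCGG at the outer start and none at the inner one.
Col18a1 outer start, chr10:77166481-77166780, minus strand: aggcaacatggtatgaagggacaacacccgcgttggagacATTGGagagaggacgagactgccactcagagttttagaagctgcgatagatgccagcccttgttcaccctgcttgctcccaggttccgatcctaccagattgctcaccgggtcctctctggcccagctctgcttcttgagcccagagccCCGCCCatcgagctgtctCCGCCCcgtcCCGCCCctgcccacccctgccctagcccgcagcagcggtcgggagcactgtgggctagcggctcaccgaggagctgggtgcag
Col18a1 inner start, chr10:77113656-77113955, minus strand: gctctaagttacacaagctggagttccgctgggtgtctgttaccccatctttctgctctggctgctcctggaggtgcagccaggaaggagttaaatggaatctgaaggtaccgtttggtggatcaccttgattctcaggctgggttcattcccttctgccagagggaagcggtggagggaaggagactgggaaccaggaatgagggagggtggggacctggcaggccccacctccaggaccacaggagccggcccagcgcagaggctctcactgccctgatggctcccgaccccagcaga

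Of the 5 genes that passed the test between diets in the lung, Col8a1, Col27a1 and Col5a3 had an entry. Col8a1 was lower and the other 2 were higher in the PS group, and their windows are set side by side.
Col8a1, chr16:57754688-57754987, minus strand: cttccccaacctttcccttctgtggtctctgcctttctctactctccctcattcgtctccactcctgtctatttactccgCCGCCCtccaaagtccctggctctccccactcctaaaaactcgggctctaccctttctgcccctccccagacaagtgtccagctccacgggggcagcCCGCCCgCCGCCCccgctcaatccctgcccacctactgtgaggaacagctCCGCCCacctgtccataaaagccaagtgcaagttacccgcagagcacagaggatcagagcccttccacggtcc
Col27a1, chr4:63215162-63215461, plus strand: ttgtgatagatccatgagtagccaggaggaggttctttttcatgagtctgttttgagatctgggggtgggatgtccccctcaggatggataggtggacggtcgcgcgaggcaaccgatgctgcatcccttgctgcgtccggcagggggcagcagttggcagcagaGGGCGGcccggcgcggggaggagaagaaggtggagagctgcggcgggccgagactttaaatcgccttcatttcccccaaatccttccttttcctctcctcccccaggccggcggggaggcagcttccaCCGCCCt
Col5a3, chr9:20815018-20815317, minus strand: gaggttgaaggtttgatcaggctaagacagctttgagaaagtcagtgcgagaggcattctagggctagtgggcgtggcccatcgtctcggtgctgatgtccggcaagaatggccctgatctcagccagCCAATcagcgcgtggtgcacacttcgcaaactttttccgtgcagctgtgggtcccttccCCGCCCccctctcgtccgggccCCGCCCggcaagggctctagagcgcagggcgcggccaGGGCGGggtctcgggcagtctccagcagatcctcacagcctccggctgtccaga

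Col3a1, a scar collagen whose diet difference did not pass, is shown for contrast. It was the only window of the 8 printed here with TATAAA, and it had no CG dinucleotide, whereas the Col4a1 window had 37.
Col3a1, chr1:45311288-45311587, plus strand: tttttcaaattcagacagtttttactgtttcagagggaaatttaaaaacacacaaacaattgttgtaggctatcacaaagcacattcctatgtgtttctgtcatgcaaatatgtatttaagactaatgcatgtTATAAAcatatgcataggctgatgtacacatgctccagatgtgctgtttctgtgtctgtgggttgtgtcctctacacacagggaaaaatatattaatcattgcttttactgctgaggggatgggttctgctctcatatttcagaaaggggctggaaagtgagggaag

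GGGCGG was found in both windows of the Col4a1 and Col4a2 pair, in the outer Col18a1 window and in those of Col8a1, Col27a1 and Col5a3. It occurred in 23 of the 38 collagen windows, against 35.7% of the 32851 windows of all genes. CCAAT occurred in 13 of the 38 (37.4% of all windows) and TATAAA in 5 (13.6%). TATAAA was in none of the windows of Col8a1, Col27a1 and Col5a3, and CCAAT was in that of Col5a3 alone.

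The composition of collagen expression differed sharply between the tissues. Per length, Col18a1 alone held 84.8% of the mean summed collagen FPKM of the livers, and type IV collagen held 44.3% to 50.7%, as group means, of that of the lungs. Col18a1 reached 133, 136, 177 and 116 in CS livers against 135, 137, 125, 134 and 145 in PS livers, in FPKM, and stood apart from every other collagen gene in all 9 livers. The next in order were Col5a3, a minor fibrillar chain, with a mean of 7.11 ± 4.21 FPKM (SD, n = 9), and Col14a1, a FACIT collagen, with 3.34 ± 0.937. Col27a1, a fibrillar collagen first known from cartilage, followed with 2.28 ± 1.52 and Col4a1 with 2.27 ± 0.871. The ranges of neighbours from Col5a3 downward overlapped among the livers, so that this order did not hold beyond the spread.

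**Figure D1:**
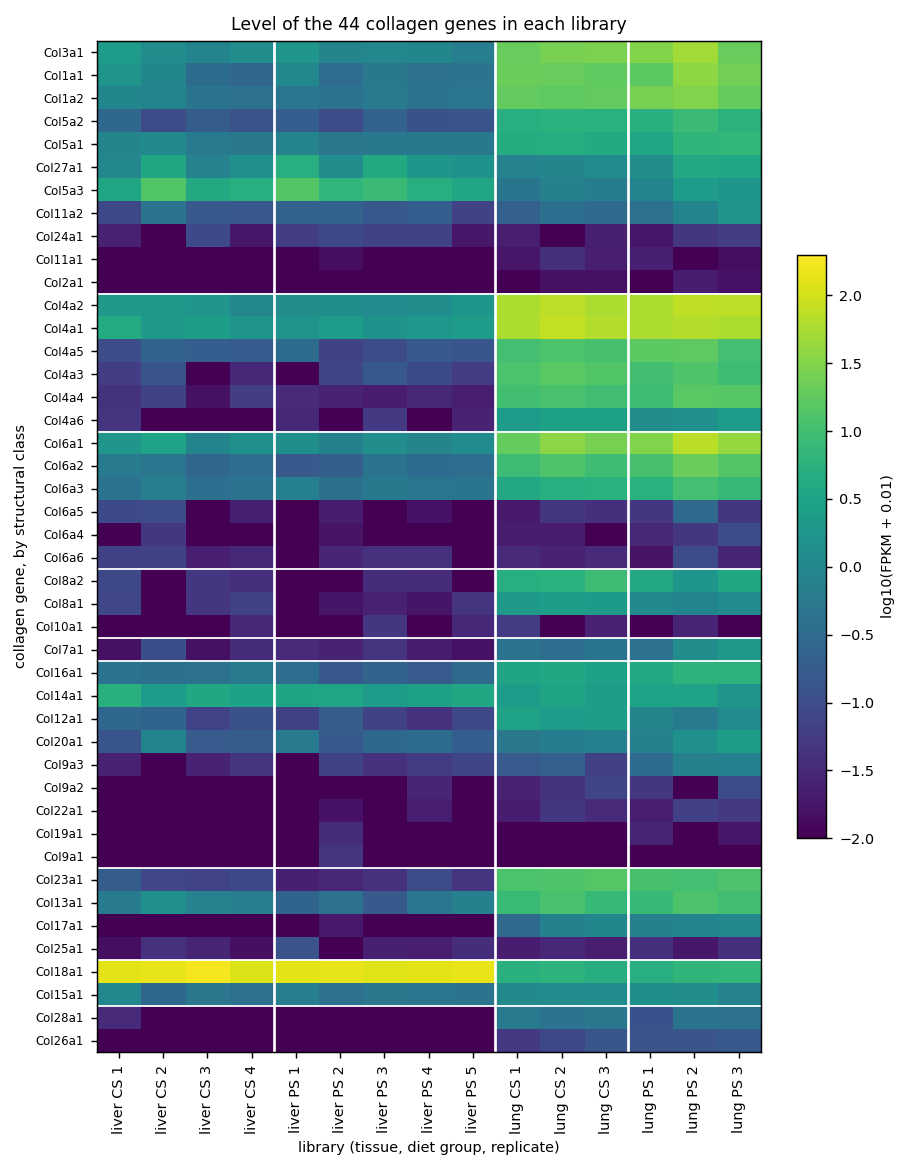
Level of each of the 44 collagen genes (rows, by class) in each of the 15 libraries (columns), as log10(FPKM + 0.01), with white lines between groups and classes. Col18a1 is the bright row of the 9 livers, and Col4a1 and Col4a2 are among the brightest rows of the 6 lungs.

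In the lung, Col4a2 (67.2 ± 9.29 FPKM, SD, n = 6) and Col4a1 (64.2 ± 8.67) led, and neither was above the other beyond the spread, since Col4a2 was the higher in 3 of 6 lungs. Col6a1 (37.0 ± 17.9), Col3a1 (29.6 ± 11.4), Col1a1 (22.8 ± 7.47) and Col1a2 (21.6 ± 5.51) came next, each overlapping its neighbour. A gap followed: Col1a2 was above Col4a5 (12.9 ± 3.01) in every lung without overlap. Col4a5, Col6a2, Col4a3, Col23a1 and Col4a4 followed in that order, none of them above the next beyond the spread.

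**Figure D2:**
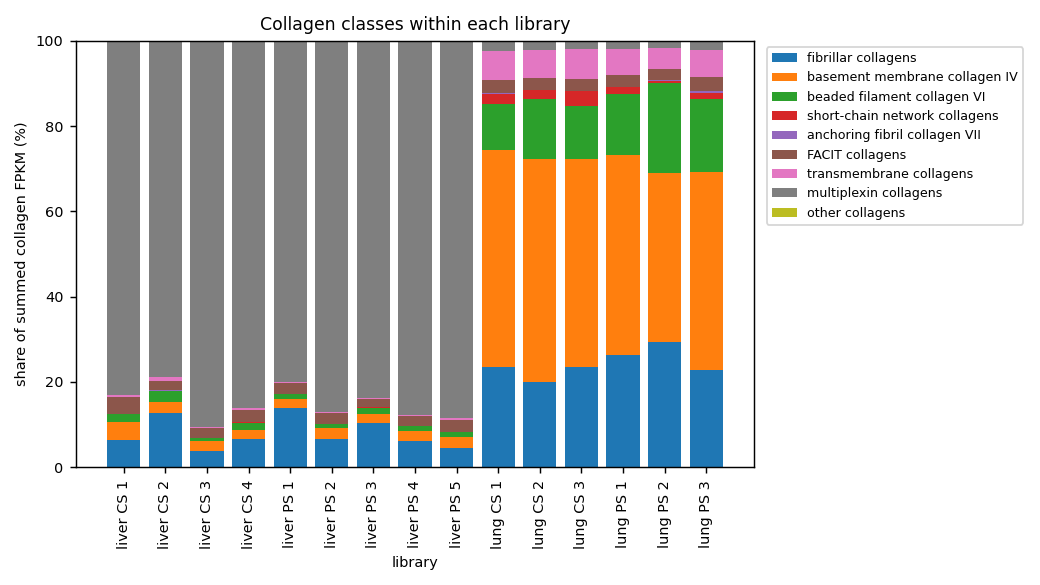
Share of each collagen class in the summed collagen FPKM of each of the 15 libraries, as stacked bars from 0 to 100%. The multiplexin class, nearly all Col18a1, fills 78.9% to 90.5% of each liver bar, and type IV collagen fills 39.5% to 52.4% of each lung bar.

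Among lungs, the shares of 4 of the 9 classes did not overlap between diets and those of 5 did, without a test of their own. The shares are tied to each other, since they sum to 100%, and of single genes tested 17.3% were apart as higher and 18.8% as lower. Type IV collagen held 48.8% to 52.4% of the collagen FPKM in the CS lungs and 39.5% to 47.0% in the PS lungs, and these ranges did not overlap. Its summed FPKM was 170 ± 24.8 and 171 ± 18.1 (SD, n = 3 each), so that the shares differed while the level of the class did so by less than the spread. Type VI collagen held 12.5% ± 1.62 in the CS lungs and 17.5% ± 3.42 in the PS lungs (SD, n = 3 each), again without overlap, while its FPKM, 32.3 to 53.2 and 46.7 to 101, overlapped. Transmembrane collagens held 6.71% to 7.01% and 4.95% to 6.25%, also apart, while their FPKM, 20.4 to 25.4 and 19.5 to 23.8, overlapped. Types VIII and X, the short-chain class, held 2.16% to 3.39% and 0.561% to 1.53%, likewise apart. Fibrillar collagens held 19.9% to 23.5% and 22.7% to 29.4%, which overlapped, although their FPKM, 70.4 to 76.9 and 83.2 to 141, did not. The shares of the FACIT, multiplexin and type VII classes and of Col26a1 with Col28a1 overlapped as well. The summed FPKM of all collagen genes was 1.17 times as high in the PS lungs as in the CS lungs (391 ± 79.9 against 335 ± 40.5 FPKM, SD, n = 3 each), which is less than the spread, and 1.03 times without PS replicate 2. In the liver the ratio of PS to CS was 0.957 (166 ± 25.2, n = 4, and 159 ± 8.04, n = 5).

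Chains that assemble together were compared within each library, per length. In the lung, Col4a1 to Col4a2 had a ratio of 0.963 ± 0.122 (SD, n = 6), and Col1a1 to Col1a2 one of 1.06 ± 0.229. The common form of type I collagen holds Col1a1 and Col1a2 chains in unequal number, and no such excess of Col1a1 mRNA was measured per length. Col6a1 was present at 2.79 ± 0.406 times Col6a2, and Col6a3 at 0.497 ± 0.0687 times Col6a2. These ratios rest on the annotated gene lengths, 4380 bases for Col6a1, 8326 for Col6a2 and 11963 for Col6a3. For Col1a1 and Col1a2 the lengths were 6563 and 12426 bases. In counts over the lungs, Col6a1 had 17677 and Col6a2 11671. Whether the lengths match the transcripts made in these tissues was not tested. In the liver the same ratios scattered more, from 0.607 to 2.04 for Col1a1 to Col1a2, where Col1a1 had as few as 25 counts in a library. Col5a1 to Col5a2 was 5.03 ± 2.84 in the livers (n = 9) and 0.863 ± 0.207 in the lungs, without overlap between the tissues. Col4a3 to Col4a4 stood at 1.21 to 1.39 in the CS lungs and at 0.583 to 1.10 in the PS lungs, which did not overlap. Every other pair compared, among them Col4a1 to Col4a2 and Col4a5 to Col4a6, overlapped between the diets in the lung.

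The diet comparison in the lung tested 32 of the 44 collagen genes, those with enough counts, and 5 passed at an adjusted p under 0.05 (edgeR quasi-likelihood test, adjusted over all 16717 genes tested). These were 3 higher (9.38%) and 2 lower (6.25%) in PS, against 4.8% and 4.43% of all genes tested. Col12a1 and Col8a1 fell, and Col27a1, Col5a3 and Col9a3 rose. At an unadjusted p of at most 0.05, 11 collagen genes were higher (15.6% of all genes) and 4 lower (14.5%). The groups did not overlap for 7 genes higher in PS, or 21.9% against 17.3% of all genes, and for 3 lower, or 9.38% against 18.8%. By sign, 23 were higher (50.4% of all genes) and 9 lower (49.6%). The median log2 fold change of the 32 was 0.36, against 0.0052 over all genes, and it ran from 0.20 without PS replicate 2 to 0.45 without PS replicate 1.

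**Figure D3:**
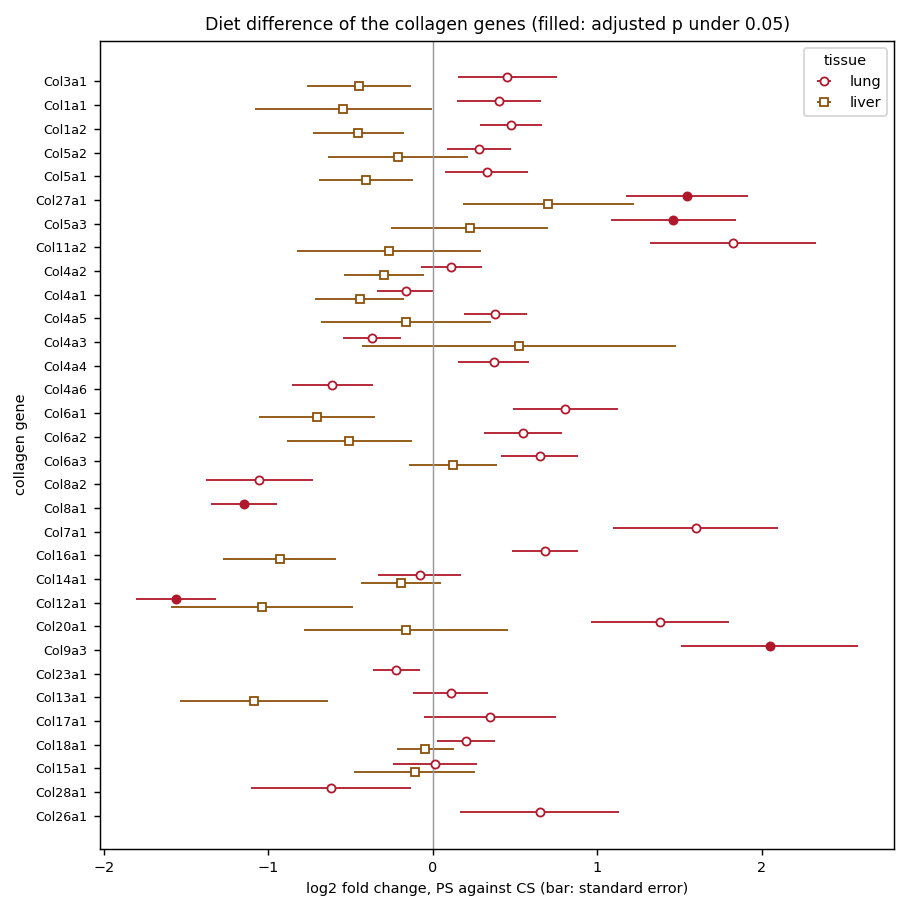
Log2 fold change of PS against CS for each collagen gene tested, with its standard error, in the lung (circles, 32 genes) and the liver (squares, 22 genes). Filled symbols passed at an adjusted p under 0.05, which held for 5 genes in the lung and none in the liver.

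Col12a1 encodes a FACIT collagen that links fibrils to their surroundings. It had 2.96, 2.35 and 2.57 in CS lungs against 0.898, 0.606 and 1.17 in PS lungs, in FPKM. All PS lungs lay below all CS lungs, and the log2 fold change was -1.56 (SE 0.24, adjusted p = 0.0193). Col8a1, a chain of the short-chain network of vessel walls, had 2.14, 2.56 and 2.23 in CS lungs against 1.11, 0.860 and 1.16 in PS lungs. The groups were again apart, with a log2 fold change of -1.15 (SE 0.20, adjusted p = 0.0217). Its partner chain Col8a2, named here after its values were seen, had 4.91, 5.61 and 8.87 in CS lungs against 3.88, 1.82 and 3.67 in PS lungs. These groups did not overlap either, yet with -1.05 (SE 0.32, adjusted p = 0.0689) it missed the threshold.

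Col27a1 was higher in all PS lungs, with 0.805, 0.899 and 1.20 in CS lungs against 1.30, 3.88 and 3.32 in PS lungs. PS replicates 2 and 3 were well above PS replicate 1, which lay just over the highest CS lung, and the log2 fold change was 1.55 (SE 0.37, adjusted p = 0.0407). Col5a3 had 0.456, 0.735 and 0.667 in CS lungs against 0.854, 2.37 and 1.91 in PS lungs, and the same PS lungs, replicates 2 and 3, were the high ones. Its log2 fold change was 1.46 (SE 0.38, adjusted p = 0.0469). Col9a3, a cartilage FACIT chain, had 0.158, 0.201 and 0.0561 in CS lungs against 0.311, 0.734 and 0.694 in PS lungs. This rested on 4 to 50 counts a library, and the log2 fold change was 2.05 (SE 0.54, adjusted p = 0.0483). Col9a3 also shares 234 exon bases with Tcfl5 on the other strand, so that reads there cannot be told apart unless the counting used strand, which is not given in the sources used here. Those bases are 6.07% of the exon bases of Col9a3, and Tcfl5 had a mean of 4.83 counts a lung.

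**Figure D4:**
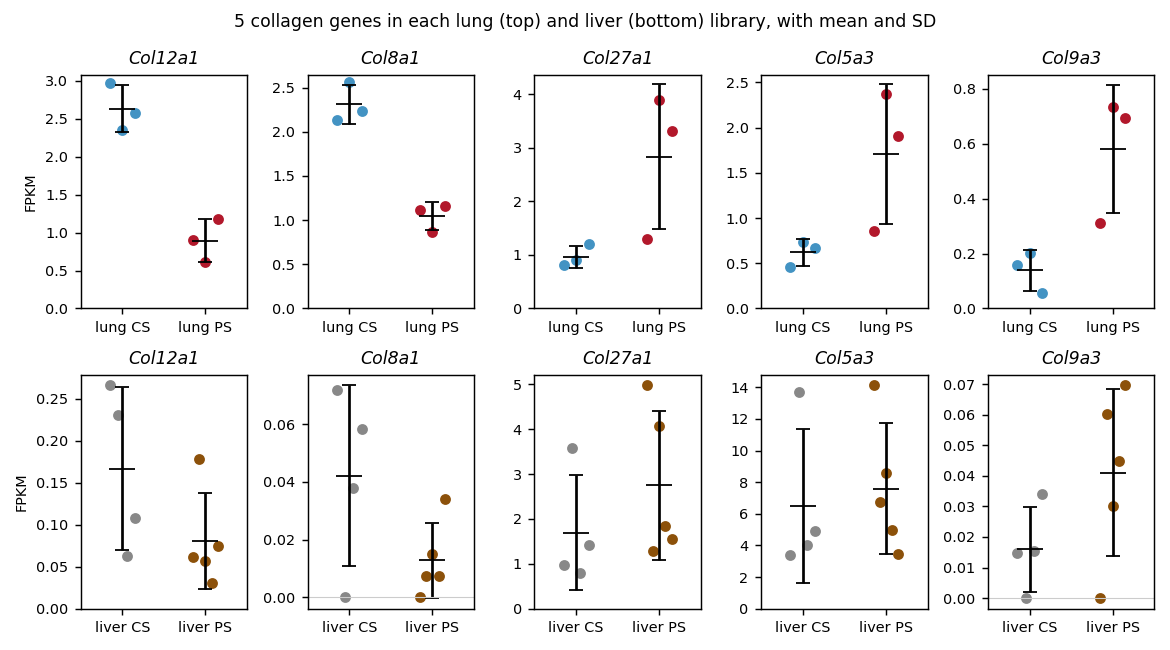
FPKM of Col12a1, Col8a1, Col27a1, Col5a3 and Col9a3 in each lung (top) and liver (bottom) library, with the mean and SD of each group and a separate axis for each panel. The lung groups are apart in all 5 panels, while the liver groups overlap in all 5.

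The calls in the lung depended on single libraries. No collagen gene passed without CS replicate 1, CS replicate 2, CS replicate 3 or PS replicate 2. Over all genes the calls then came to 1 higher and 22 lower, 1 and 25, 0 and 0, and 2 and 7. Without PS replicate 1, 10 collagen genes were called higher and 2 lower, where 10.2% of all genes were called higher and 6.95% lower. Without PS replicate 3, where these shares were 5.55% and 7.67%, Col1a2 and Col4a5 were called higher, Col12a1, Col8a1 and Col4a6 lower, and the 3 genes that rose with all libraries were not called. Col12a1 and Col8a1 kept log2 fold changes of -1.82 to -1.34 and -1.25 to -1.02 over the 6 fits that left out a library, and Col27a1 one of 1.26 to 1.89. GC content moved with the result. The genes that rose had a GC content of 59.4% (Col27a1), 61.6% (Col5a3) and 59.2% (Col9a3) and those that fell 48.3% (Col12a1) and 46.8% (Col8a1), and over all genes tested the median log2 fold change went from -0.11 in the fifth of lowest GC content to 0.21 in the fifth of highest. With that trend removed, Col27a1, at 1.31 (adjusted p = 0.0486), was the only collagen gene called higher, Col5a3 (1.17, adjusted p = 0.0631) and Col9a3 (1.82, adjusted p = 0.0602) were not called, and Col12a1, Col8a1 and Col8a2 were called lower. Over all genes, 4.47% were called higher and 3.51% lower in that fit. Cell markers differed between the lungs too. Summed alveolar epithelial markers stood at 15479 to 16165 FPKM in the CS lungs and at 18726 to 29520 in the PS lungs. The 7 genes listed as hepatic stellate cell markers stood at 111 to 124 and at 164 to 182, and both sums were apart. That list summed to 74.0 to 145 in the CS livers and 50.5 to 80.8 in the PS livers. It therefore does not single out stellate cells here. Lung fibroblast markers stood at 1291 to 1649 and at 1551 to 2194. The part of GC content and of these marker differences in the collagen values was not tested beyond the fits given.

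The scar collagens did not pass in the lung. Col1a1 had 21.2, 19.8 and 17.7 in CS lungs against 16.7, 37.0 and 24.2 in PS lungs, and its log2 fold change was 0.40 (SE 0.26, adjusted p = 0.321). Col1a2 had 18.2, 17.2 and 18.7 in CS lungs against 25.7, 31.0 and 19.0 in PS lungs, and Col3a1 had 20.1, 25.9 and 28.6 in CS lungs against 31.9, 50.9 and 20.2 in PS lungs. In all 3 genes PS replicate 2 was the highest lung, and only for Col1a2 did the groups not overlap. Their log2 fold changes were 0.48 (SE 0.19, adjusted p = 0.126) for Col1a2 and 0.45 (SE 0.30, adjusted p = 0.338) for Col3a1. All 8 fibrillar collagens tested had positive log2 fold changes, a sign shared by 50.4% of all genes, with a median of 0.47. The fibrillar chain Col11a2, also named after its values were seen, came close with 1.82 (SE 0.51, adjusted p = 0.0543).

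Type VI collagen showed the same PS lung on top. In that lung, PS replicate 2, the summed markers of mesothelial cells, the lining of the pleura, stood at 118 FPKM, against 13.9 to 67.7 in the other lungs, and their part in these values was not tested. Col6a1 had 19.4, 35.0 and 26.0 in CS lungs against 30.0, 70.3 and 41.0 in PS lungs, with a log2 fold change of 0.81 (SE 0.32, adjusted p = 0.130). Col6a2 had 8.89, 12.8 and 9.39 in CS lungs against 11.1, 20.4 and 14.1 in PS lungs, and Col6a3 had 3.95, 5.20 and 5.64 in CS lungs against 5.47, 10.2 and 7.56 in PS lungs. In each of the 3 genes PS replicate 2 was highest and the groups overlapped. The log2 fold change was 0.55 (SE 0.24, adjusted p = 0.159) for Col6a2 and 0.65 (SE 0.24, adjusted p = 0.105) for Col6a3, so that none was called. Without PS replicate 2, the log2 fold changes were 0.41 for Col6a1, 0.29 for Col6a2 and 0.41 for Col6a3, and 0.07 for Col1a1, 0.31 for Col1a2 and 0.06 for Col3a1. Col6a4, Col6a5 and Col6a6 had too few counts for the test.

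No type IV chain passed in the lung. Col4a1 had 58.4, 81.0 and 63.9 in CS lungs against 58.5, 64.5 and 58.9 in PS lungs. Its log2 fold change was -0.17 (SE 0.17, adjusted p = 0.553). Col4a2 had 59.0, 74.9 and 59.4 in CS lungs against 57.9, 78.1 and 73.6 in PS lungs. Here the log2 fold change was 0.11 (SE 0.18, adjusted p = 0.713), and it changed sign to -0.13 with the GC trend removed. The CS and PS lungs overlapped in both. Of the 6 type IV genes, 3 were positive and 3 negative, and Col4a6, named after its values were seen, was the only one at an unadjusted p of at most 0.05, with -0.61 (SE 0.25, adjusted p = 0.134). The multiplexins Col18a1 and Col15a1 had log2 fold changes of 0.20 and 0.01.

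In the liver 22 collagen genes were tested and none passed at an adjusted p under 0.05 by edgeR, where 1 gene in 13195 did (0.00758%), nor by DESeq2, which called 0.834% of all genes higher and 0.402% lower. At an unadjusted p of at most 0.05, 2 were lower in PS and none higher, or 9.09% of the collagen genes tested against 3.58% of all genes for lower and 3.96% for higher. Col16a1, a FACIT collagen, had 0.418, 0.381, 0.406 and 0.582 in CS livers against 0.348, 0.137, 0.225, 0.163 and 0.298 in PS livers, in FPKM. The PS livers were all below the CS livers, which held for 1.53% of all genes, and the log2 fold change was -0.93 (SE 0.34, adjusted p = 0.524). Col13a1, a transmembrane collagen, had 0.587, 1.41, 0.801 and 0.683 in CS livers against 0.238, 0.415, 0.152, 0.477 and 0.756 in PS livers. Its groups overlapped, with a log2 fold change of -1.09 (SE 0.45, adjusted p = 0.605).

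Across the liver genes tested, 18 of 22 had negative log2 fold changes, against 53.9% of all genes, and 4 positive ones, against 46.1%, with a median of -0.28 against -0.03. CS replicate 1 was the highest liver for 10 of the 18 negative genes and CS replicate 2 for 5. Without CS replicate 1, 14 were negative (63.6%) and 8 positive, and the median was -0.16. Col1a1 had 1.67, 0.917, 0.317 and 0.249 in CS livers against 0.989, 0.336, 0.542, 0.414 and 0.429 in PS livers, and CS replicate 1 was highest. Col3a1 had 2.25, 1.25, 0.873 and 1.27 in CS livers against 1.71, 0.880, 0.962, 0.924 and 0.689 in PS livers, with CS replicate 1 again highest, followed by PS replicate 1. Without CS replicate 1, Col1a1 changed from -0.54 to 0.12. Col1a2 had 0.916, 0.855, 0.446 and 0.411 in CS livers against 0.485, 0.420, 0.568, 0.441 and 0.480 in PS livers, with CS replicates 1 and 2 above all other livers and a log2 fold change of -0.45 (SE 0.28, adjusted p = 0.764).

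Col4a1 had 4.43, 2.05, 2.54 and 1.68 in CS livers against 1.68, 2.32, 1.55, 1.97 and 2.26 in PS livers, and Col4a2 had 2.10, 2.06, 1.74 and 0.970 in CS livers against 1.34, 1.38, 1.20, 1.28 and 1.79 in PS livers. For Col4a1, CS replicate 1 was the highest liver, and for neither gene were the groups apart. Col6a1 had 1.75, 3.15, 0.856 and 1.41 in CS livers against 1.38, 0.768, 1.25, 0.897 and 1.19 in PS livers, with CS replicate 2 highest and a log2 fold change of -0.70 (SE 0.35, adjusted p = 0.707). Col6a2 had 0.589, 0.471, 0.250 and 0.330 in CS livers against 0.150, 0.188, 0.434, 0.312 and 0.346 in PS livers and Col6a3 0.424, 0.684, 0.363 and 0.422 in CS livers against 0.713, 0.373, 0.536, 0.483 and 0.465 in PS livers. PS replicate 1 was the lowest liver for Col6a2 and the highest for Col6a3. Col14a1 had 5.45, 2.35, 3.68 and 2.92 in CS livers against 3.28, 3.47, 2.35, 2.89 and 3.69 in PS livers, highest in CS replicate 1, and a log2 fold change of -0.19 (SE 0.24, adjusted p = 0.931).

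Several marker lists of other liver cells had the same sign, while that of hepatocytes did not. All 7 hepatic stellate cell markers, all 6 endothelial markers and all 5 macrophage markers had negative log2 fold changes in PS, with medians of -0.44, -0.56 and -0.74 and no gene called, against 53.9% of all genes negative. Of 5 hepatocyte markers 3 were positive (median 0.36), and of 4 lung fibroblast markers tested 2 were positive and 2 negative. The summed stellate markers ran from 74.0 to 145 FPKM in the CS livers and from 50.5 to 80.8 in the PS livers, endothelial markers from 7.64 to 10.3 and from 3.97 to 9.58, and macrophage markers from 49.0 to 82.3 and from 18.4 to 56.7. Smooth muscle markers, of which Acta2 (-2.20) and Myh11 (-1.31) were tested and not called, summed to 7.47 and 7.63 FPKM in CS replicates 1 and 2 and to 0.524 to 1.79 in the other livers. Those livers were also the highest for Col1a2, Col4a2, Col5a1, Col6a1, Col6a2 and Col12a1. Without CS replicate 1 the log2 fold changes of Col1a2, Col6a1 and Col6a2 were -0.25, -0.72 and -0.29, and without CS replicate 2 -0.29, -0.28 and -0.43. The part of these cells in the collagen values was not tested. Hepatic Col18a1 had a log2 fold change of -0.04 (SE 0.17, adjusted p = 0.987), which turned to 0.01 with the GC trend removed and to 0.08 without CS replicate 3.

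Col5a3 and Col27a1 varied widely between livers of a diet. Col5a3 had 3.37, 13.7, 4.02 and 4.91 in CS livers against 14.2, 6.78, 8.58, 5.00 and 3.47 in PS livers. Col27a1 had 0.974, 3.58, 0.791 and 1.43 in CS livers against 4.98, 1.30, 4.06, 1.84 and 1.56 in PS livers. Both were highest in the same livers, CS replicate 2 and PS replicates 1 and 3, and the groups overlapped. The log2 fold changes were 0.22 (SE 0.48, adjusted p = 0.970) and 0.70 (SE 0.52, adjusted p = 0.828). Neither was called in any fit that left out a liver, where Col5a3 ran from -0.13 without PS replicate 1 to 0.90 without CS replicate 2, and Col27a1 from 0.38 to 1.38 without the same libraries.

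The test of the difference between the diet effects of lung and liver called no collagen gene among 33 at an adjusted p under 0.05 by edgeR, where 0.00565% of all genes were called higher and 0.017% lower. DESeq2 called 1 collagen gene, as higher, and 0.514% of all genes higher and 0.774% lower. At an unadjusted p of at most 0.05, 8 collagen genes had a higher effect in the lung (5.54% of all genes) and none a lower one (5.4%). These, named after their values were seen, were Col16a1, Col6a5, Col6a1, Col1a2, Col11a2, Col4a4, Col7a1 and Col6a2. Of these, Col6a5, Col4a4 and Col7a1 were below the count filter of the liver comparison, with 0 to 13, 1 to 9 and 1 to 15 counts a liver, so that their difference rested on few liver reads, and for Col6a5 47 of 74 lung counts came from PS replicate 2. For Col16a1 the diet effect was 1.58 log2 units higher in the lung (SE 0.41, unadjusted p = 0.00142, adjusted p = 0.242 by edgeR), with 0.68 in the lung and -0.93 in the liver. For Col6a1 it was 1.45 (SE 0.51, adjusted p = 0.355 by edgeR). The median difference was 0.68 over the 33, against 0.0019 over all genes. Of the 33, 11 were below the filter in the liver, among them Col26a1 with 0 counts in every liver, and over the 22 that passed in both tissues the median was 0.73, with 5 of the 8. The 8 became 3 without PS lung replicate 2, 4 without CS liver replicate 2 and 5 without CS lung replicate 1. The share of 5.54% belongs to the fit with all libraries, and those of the other fits are not given here.

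Genes that make, trim, bind and degrade collagen were read beside it, in lists drawn up with earlier results of these data known. Over the 7 lists, 87 genes were tested in the lung, of which 5 were called higher (5.75%) and 6 lower (6.90%), against 4.8% and 4.43% of all genes tested, which is near those shares. Of 18 genes of collagen folding and modification, all tested in the lung, 2 rose and 1 fell. Serpinh1, the collagen chaperone HSP47, had 134, 123 and 105 FPKM in CS lungs against 231, 248 and 187 in PS lungs, without overlap, and a log2 fold change of 0.87 (SE 0.17, adjusted p = 0.0287). P3h3, a prolyl hydroxylase, rose by 0.70 on the log2 scale (SE 0.13, adjusted p = 0.0266) and P3h2, another, fell by 1.23 on the same scale (SE 0.32, adjusted p = 0.0463). Of 12 processing and cross-linking genes tested, Pcolce, which enhances procollagen cleavage, rose by 0.74 on the log2 scale (SE 0.19, adjusted p = 0.0455) and Tll1, a procollagen protease, fell by 1.27 (log2, SE 0.30, adjusted p = 0.0383).

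Of 11 genes of collagen breakdown and its inhibition, Timp3 alone was called. This matrix-bound inhibitor of metalloproteinases had 29.2, 46.0 and 27.6 FPKM in the CS lungs and 5.80, 4.78 and 9.57 in the PS lungs, far apart, and fell by 2.35 on the log2 scale (SE 0.31, adjusted p = 0.0152). Of 9 collagen receptors, Itga10, a collagen-binding integrin chain, rose by 2.13 on the log2 scale (SE 0.48, adjusted p = 0.0363). Of 10 fibril and elastic fibre partners, Tnxb, a tenascin that binds fibrils, rose by 0.96 (log2, SE 0.24, adjusted p = 0.0420), and none of 15 basement membrane partners was called. Of 12 genes of TGF-beta signalling, a known driver of collagen expression, none rose and 3 fell, where 4.8% of all genes were called higher and 4.43% lower. These were the ligand Tgfb2 (log2 fold change -0.89) and the signal carriers Smad2 (-0.69) and Smad4 (-0.54) (adjusted p = 0.0266, 0.0319 and 0.0455). In the liver none of these lists held a called gene, and 54 of the 70 genes tested had negative signs (77.1%, against 53.9% of all genes). Negative were all 9 processing genes, 13 of 14 basement membrane partners, all 10 fibril partners and 9 of 11 TGF-beta genes, while 10 of 15 folding and modification genes were positive, with a median of 0.10.

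Cell markers in the lung gave few calls. Of 6 endothelial markers tested Kdr was called lower, of 4 macrophage markers Adgre1 was called lower, and of 6 hepatic stellate cell markers tested Ecm1 was called higher. None of 6 lung fibroblast markers or 5 smooth muscle markers was called, with median log2 fold changes of 0.02 and -0.26. Of the listed cartilage markers, Acan, Snorc and Epyc were at 0 in all 6 lungs and Matn1 in the CS lungs. Comp, Chad, Matn3, Hapln1 and Cnmd had counts in lungs of both groups. Of the 9 cartilage markers 1 had enough counts to be tested, and the summed level was 10.7 to 16.8 FPKM in the CS lungs and 3.25 to 18.3 in the PS lungs.

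Between the tissues, 33 collagen genes were tested, and 25 were called higher and 4 lower in the lung, where 42.3% of all 17696 genes tested were called higher and 34.4% lower. The median log2 difference was 3.44, against 0.17 over all genes, and was the same with Col26a1, which had no count in the livers, at its lower bound. Of the 25, 10 were below the count filter in the liver and entered through the lung, where they were high. These were Col17a1, Col23a1, Col26a1, Col28a1, Col4a4, Col4a6, Col7a1, Col8a1, Col8a2 and Col9a3. Of the 22 genes that also passed the filter in the liver, 15 were called higher and 4 lower, with a median of 2.48. With at least 10 counts in every library 18 were tested, with 12 called higher, 4 lower and a median of 2.74, where 36.5% of all genes were called higher and 37.2% lower. The direction of the genes near 0 rested on how the tissues were scaled. Scaling by library totals alone, an alternative chosen after seeing the data, moved the median of all genes to 1.55 and that of the collagen genes to 4.81, with 29 called higher and 2 lower, against 72.3% and 14.7% of all genes.

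**Figure D5:**
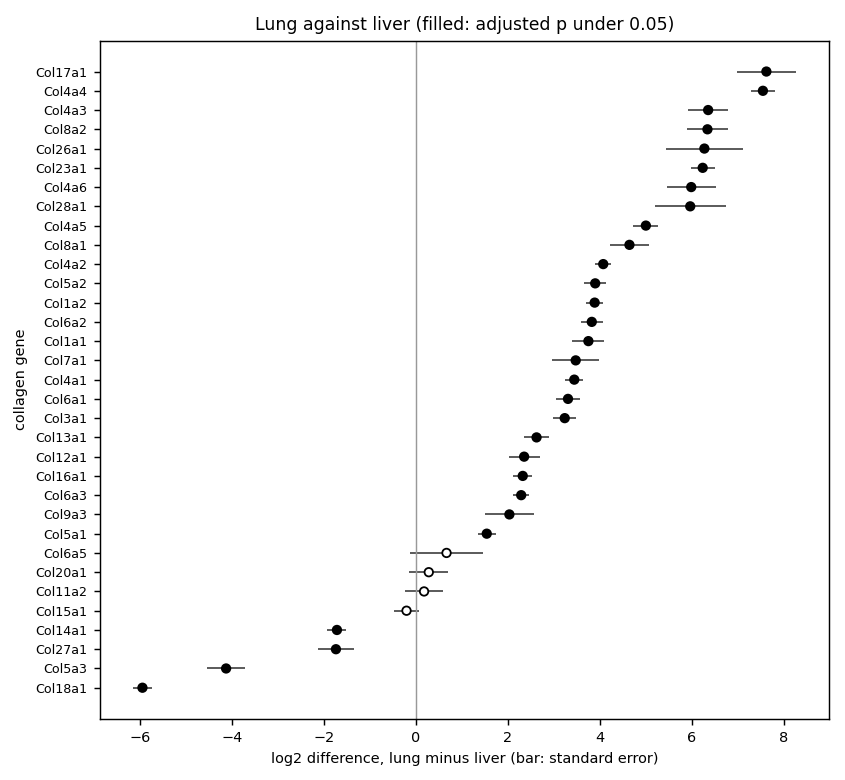
Log2 difference of lung minus liver with its standard error for the 33 collagen genes tested, in order, under trimmed-mean scaling. Filled points passed at an adjusted p under 0.05, with 4 filled below 0 (Col18a1, Col5a3, Col27a1 and Col14a1) and 25 above.

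Col18a1 was lower in the lung by 5.95 on the log2 scale (SE 0.20, adjusted p = 1.32e-13) and Col5a3 by 4.13 (SE 0.41, adjusted p = 8.29e-08), and both remained called, at -4.56 and -2.72, with library totals. Col14a1 (-1.72, adjusted p = 9.50e-07) and Col27a1 (-1.74, adjusted p = 0.000609) were called lower under trimmed-mean scaling but not with library totals (-0.35 and -0.33). Col15a1 was at -0.21 (adjusted p = 0.480) and turned to 1.16 with library totals. Col15a1, Col20a1, Col11a2 and Col6a5 were the tested genes that were not called.

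By the fitted log2 difference, the genes of largest excess in the lung that did not overlap were Col17a1, Col4a4, Col4a3, Col8a2 and Col26a1. Col4a4 and Col4a3, the alveolar basement membrane chains, were higher by 7.54 (SE 0.26, adjusted p = 1.78e-13) and 6.35 (SE 0.43, adjusted p = 6.33e-10). In FPKM, which the authors scaled separately in each tissue, they had 9.20 to 15.8 and 9.04 to 16.0 in the lungs and at most 0.0574 and 0.140 in the livers. Col8a2 was higher by 6.33 (SE 0.44, adjusted p = 1.02e-09). Col17a1, the hemidesmosome collagen of epithelia, had 480 counts over the lungs and 1 over the livers. That is a ratio of 243 under trimmed-mean scaling (95% exact interval 43.4 to 9610, counting error only) and of 634 with library totals (113 to 25077). Col26a1 had 96 counts over the lungs and 0 in all 9 livers. Against a floor of 3 counts over the livers it was at least 16.2-fold higher under trimmed-mean scaling and at least 42.2-fold with library totals. Its place among these genes rests on a fitted value over a group with no counts, which depends on the prior count. Col23a1, a transmembrane collagen named after its values were seen, had the next fitted difference, 6.23 (SE 0.26, adjusted p = 1.45e-12), which is above that bound.

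The major chains were also well above the liver. The log2 differences were 3.75 for Col1a1 (SE 0.35), 3.88 for Col1a2 (SE 0.19), 3.23 for Col3a1 (SE 0.25), 3.44 for Col4a1 (SE 0.19) and 4.07 for Col4a2 (SE 0.17), with adjusted p-values of 4.11e-08, 7.40e-12, 3.09e-09, 6.03e-11 and 1.69e-12. The type VI chains Col6a1, Col6a2 and Col6a3 had log2 differences of 3.30, 3.82 and 2.28. The CPM of the tissues did not overlap for 23 of the genes higher in the lung (29.7% of all genes) and 3 of those lower (21.8%).

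The remaining collagen genes were scarcely detected. Of the 44, 11 were below the count filter in each tissue and in the comparison between them. These were Col2a1, Col6a4, Col6a6, Col9a1, Col9a2, Col10a1, Col11a1, Col19a1, Col22a1, Col24a1 and Col25a1. Col2a1, the main cartilage collagen, had no count in 9 livers and 5 counts over 6 lungs, and Col9a1 had none in the lungs and 3 in a single liver. Col24a1 and Col25a1 had 45 and 42 counts over the livers and 17 and 26 over the lungs. Col6a5 was tested only in the fits over both tissues. Col6a5 and Col6a6 share a stretch of 572 bases at 96.9% identity, so that counts of these genes may be split between them.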

How the data were processed

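RNA-seq libraries of 9 livers and 6 lungs were analysed from the tables the authors deposited, which hold read counts per gene and FPKM. Per the submitters' processing notes, reads were aligned to mm10 with HISAT2 2.0.5 and counted with featureCounts 1.5.0-p3. Whether counting used strand is not given in the sources used here. The FPKM were deposited by the authors in 1 table per tissue, each scaled separately, and were used for levels. The deposited counts were tested with the edgeR 4.0.16 quasi-likelihood test (robust, TMM scaling, filterByExpr) in R 4.3.3, with Benjamini-Hochberg adjustment over all genes tested and a threshold of 0.05. Diets were compared within each tissue, tissues and the difference of the diet effects in a fit over all 15 libraries. Alternatives were DESeq2 1.42.0, limma 3.58.1 on log2(FPKM + 1) and log2(FPKM + 0.1), other scalings and filters, length and GC trend removal (loess span 0.3), replicate or mouse blocks, and leaving out each library. Scripts were tested on simulated data. Within a tissue each library came from a separate mouse, and 6 mice gave both tissues. The main fits over both tissues treated the libraries as independent. With mouse as a block over those 6 mice, 25 collagen genes were called higher and 4 lower in the lung (41.5% and 28.8% of all genes). No gene was then called for the difference of the diet effects. The deviations of liver and lung of the same mouse correlated at -0.046 to 0.115 across genes. All value columns of the tables were mapped to samples, and the other columns hold gene annotation.

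The members and lists were chosen with earlier results of these data known. Values in each library are given for collagen genes called between diets, those at an unadjusted p of at most 0.05 in the liver, the 6 of highest mean FPKM in each tissue, and Col1a1, Col1a2, Col3a1, Col4a1, Col4a2, Col6a1, Col6a2 and Col6a3. Between tissues the 5 largest called differences without overlap in each direction are named, and at most 4 called genes of each other list. Intervals cover counting error only.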

Additional observations from a re-analysis of the deposited data

Results flagged for a closer look

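Of 76 liver group values of collagen genes, class sums and chain ratios, 10 had a library far from the others of its group by Dixon's criterion, where chance gives about 1 in 20. Only the liver groups were examined, so that nothing is said here of the lungs. CS replicate 2 stood at 13.7 FPKM for Col5a3, against 3.37 to 4.91 in the other CS livers, and at 0.868 for Col20a1, against 0.132 to 0.178. In the same liver the transmembrane collagens summed to 1.51 FPKM (0.768 to 0.882 in the others), and Col5a1 was 12.2 times Col5a2 (3.27 to 4.39 times). In the class of Col26a1 and Col28a1, CS replicate 1 stood at 0.0230 FPKM and the other CS livers at 0, which is 2 reads of Col28a1, since Col26a1 had 0 counts in every liver.

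PS replicate 1 stood at 1.71 FPKM for Col3a1, against 0.689 to 0.962 in the other PS livers, and at 0.838 for Col5a1, against 0.498 to 0.537. Its ratio of Col1a1 to Col1a2 was 2.04 (0.799 to 0.954 in the others), of Col6a1 to Col6a2 9.15 (2.87 to 4.08) and of Col6a3 to Col6a2 4.74 (1.23 to 1.98). Col6a2 had 16 counts in that liver.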

How the results depend on the processing

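In the liver no collagen gene was called under any alternative, where at most 0.834% of all genes were called higher and 0.402% lower. The 2 genes lower at an unadjusted p of at most 0.05 became 4 without a count filter, where 42 collagen genes were tested. They became 1 with the GC trend removed, and 1 to 4, with 0 to 2 higher, when single livers were left out. The shares of all genes at that threshold are not given for these fits, so that the counts have no background. Col18a1 turned to 0.0079 with the GC trend removed and to 0.00065 with the replicate block as well, and over the fits that left out a liver it ran from -0.13 to 0.081, Col1a1 from -0.87 to 0.12, Col14a1 from -0.35 to 0.071, Col6a3 from -0.024 to 0.36 and Col5a3 from -0.13 to 0.90. In the lung the 3 called higher became 7 with DESeq2 (9.64% of all genes called higher, against 4.8%), 5 without a filter (4.25%), 0 with limma at either pseudocount (2.96% and 3.16%), 6 with the length trend removed (6.53%), 1 with the GC trend removed (4.47%) and 5 with the replicate number as a block (4.89%), where 3 were called lower (4.82%). Leaving out a lung gave 0 to 10 higher and 0 to 3 lower, where 0% to 10.2% of all genes were called higher and 0% to 7.67% lower. At the unadjusted threshold it gave 7 to 13 higher and 2 to 5 lower. The shares of all genes at that threshold are not given for these fits, so that those counts have no background. Col4a2 turned to -0.13 with the GC trend removed, with or without the block. Replicate numbers did not pair the samples, with correlations of -0.36 to -0.03 in the liver and -0.006 to 0.099 in the lung, where only replicate 3 correlated best with its own number.

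Between tissues the median of 3.44 was 2.69 without a filter, 2.74 with at least 10 counts in every library (12 called higher), 2.79 with the length trend and 2.86 with the GC trend removed, and 4.81 with library totals (2 called lower). Col15a1 turned to 0.069 at 10 counts and 1.16 with library totals, and ran from -0.32 to 0.089 when single libraries were left out. For the difference of diet effects, DESeq2 called 1 higher (0.514% of all genes) and limma on log2(FPKM + 1) 2 higher and 2 lower (1.06% and 2.15%), with 5 lower at the unadjusted threshold and a median of 0.34, and limma on log2(FPKM + 0.1) gave 2 lower at that threshold. At the same threshold, at least 10 counts in every library left 5 higher, of 18 collagen genes tested rather than 33. Removing the GC trend also left 5, of 33, and leaving out a library gave 3 to 12 higher and 0 to 1 lower. The shares of all genes at that threshold are not given for these fits or those with limma, so that the counts have no background. The causes were not tested. Limma on FPKM was not run between tissues, since each table was scaled separately. With 3 lungs a diet and few reads for many collagen genes, a difference that missed the threshold may still exist.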
